A study of Felis catus with 36 samples.

Results

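Skeletal muscle of cats with aortic banding was compared between 1 month and 4 months, the time labels of the series. The comparison rests on 10 libraries, chosen by their titles: 5 of banded muscle at 1 month and 5 of banded muscle at 4 months, out of 36 libraries in the series. The series asks how tissues change as heart failure with preserved ejection fraction progresses in a cat model, and it also holds 8 libraries of sham-operated muscle (3 at 1 month and 5 at 4 months) and the left ventricle of the same 4 kinds of group. The labels call every banded group an HFpEF model with aortic banding and every sham group a control, and they state neither strain, age, sex, muscle sampled, genotype nor sequencing date. RNA was total RNA made into stranded mRNA libraries and counted per gene. Whether each library stands for its own animal is not stated in the labels, so p-values measure the spread between samples, which may be technical. Time in the study, age of the animal and any batch tied to the sampling time cannot be told apart here.

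In heart failure with preserved ejection fraction the ventricle ejects normally but fills poorly, and exercise intolerance is its leading symptom. Skeletal muscle is a tissue outside the heart that contributes to that symptom. Muscle RNA is dominated by a few abundant transcripts for contractile and energy proteins, so a change in rarer transcripts, among them those of vessels, connective tissue, nerve and immune cells, alters the library total little. In bulk muscle, fewer cells of a type and less RNA per cell cannot be told apart.

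The counts name genes by Ensembl cat identifiers, and the reference table of 39307 cat genes holds 0 of these identifiers. Genes therefore carry no symbol or role here, pathway and cell type marker lists could not be applied, and the tissue label could not be checked against muscle markers. As a check that needs no names, each of the 10 libraries was compared with the other libraries by Spearman correlation of log2 CPM (gene counts scaled to the effective library size). The lowest correlation of any of the 10 with another skeletal muscle library was 0.925, and the highest with a left ventricle library was 0.866.

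Gene counts ran from 22.3 M to 28.8 M at 1 month and from 26.8 M to 29.8 M at 4 months. The 1-month library 1 stood apart before any comparison. Its share of reads assigned to genes was 59.1%, against 71.02% to 73.2% in the other 1-month libraries, and 19.6% of its reads fell outside annotated genes, against 10.8% to 13.1%. A 95% Wilson interval around a library's assigned share reached at most 0.0157 percentage points to either side, which covers counting error only. Principal components of the 10 libraries placed time on the first component, which held 47.9% of the variance. The 1-month libraries lay between -60.9 and -39.6 on it and the 4-month libraries between 25.2 and 72.4, so the groups did not overlap. The second component held 12.4% and set 1-month library 1, at 65.1, apart from the other 9, which lay between -41.3 and 16.6.

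**Figure D1:**
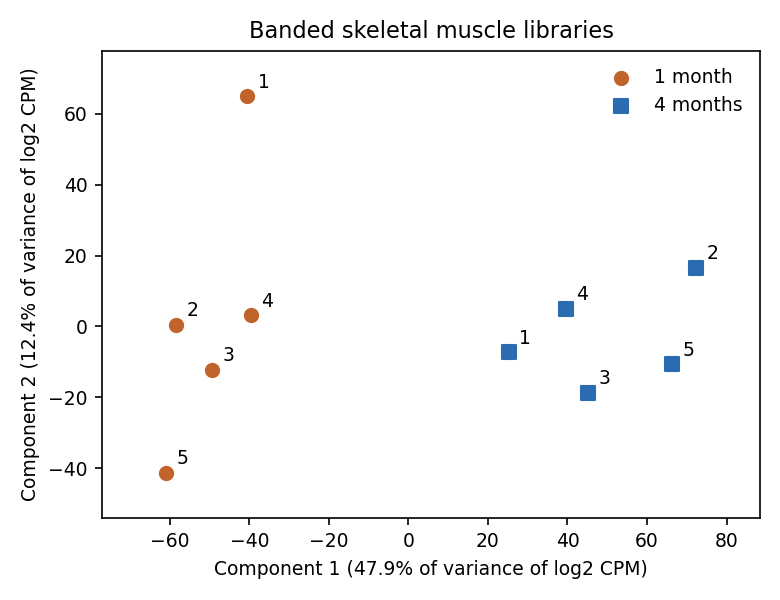
Principal components 1 and 2 of log2 CPM for the 10 banded skeletal muscle libraries, labelled by library number, with 1 month as circles and 4 months as squares. All 1-month libraries lie at or below -39.6 on component 1 and all 4-month libraries at 25.2 or above, and 1-month library 1 stands alone at 65.1 on component 2.

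Between 1 and 4 months 5746 of 13480 genes tested changed, 42.6% of them, with 2623 higher (19.5%) and 3123 lower (23.2%) at 4 months. These calls come from edgeR's quasi-likelihood test at an adjusted p under 0.05. Over all calls the falls were the larger, although the reverse held among the scarcest genes. The called falls had a median of 1.25 on the log2 scale (interquartile range 0.87 to 1.74) and the called rises a median of 0.62 (0.46 to 0.87). The sets differ in abundance, with a median of 3.80 CPM for called falls and 30.3 CPM for called rises. Under 1 CPM the 61 called rises had the larger median, 2.18 on the log2 scale against 1.86 for the 668 called falls. Genes of that class could pass the low-count filter through the group where they were high, which favours large changes. From 1 to 10 CPM the medians were 0.77 for rises and 1.21 for falls. More than 2-fold fitted changes were seen in 67.3% of the called falls, 2102 genes, and in 17.2% of the called rises, 452 genes. A test for changes beyond 1.5-fold passed 1919 genes (14.2%), of which 1473 (10.9%) were lower and 446 (3.31%) higher at 4 months. The 5 libraries of one time lay wholly above the 5 of the other in 3341 genes (24.8%), 1488 that were higher (11%) and 1853 that were lower (13.7%) at 4 months.

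Leaving out 1 library at a time gave 4945 to 5816 called genes, and 5577 without 1-month library 1. The split into rises and falls moved with 1 choice of scaling. With library totals alone in place of the trimmed mean of M values (TMM), log2 fold changes moved by -0.17 at the median, and 5234 genes were called, with 1450 higher and 3784 lower. Rises then made up 27.7% of the calls, against 45.6% with TMM. They made up 47.4% with relative log expression (RLE) scaling and 46.8% with DESeq2. Beyond 1.5-fold, library totals alone gave 262 genes higher and 1893 lower, against 446 and 1473 with TMM.

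The direction of change went with abundance. Among 1967 genes with a mean under 1 CPM over the 10 libraries, 34% were lower and 3.1% higher at 4 months. Among 4934 genes from 1 to 10 CPM, 32.6% were lower and 9.08% higher. The order was the opposite above that level. Of 5479 genes from 10 to 100 CPM, 30.2% were higher and 13.9% lower, and of 1011 genes from 100 to 1000 CPM, 43% were higher and 8.01% lower. The 89 genes at 1000 CPM or more gave 23 rises (25.8%) and 4 falls. The share of rises there was 15.7% without 1-month library 2 and 13.5% without 4-month library 5. Of the 10 most abundant genes 9 were not called and 1 was called higher. Over all genes tested, whether called or not, the median log2 fold change was -0.82 under 1 CPM, -0.27 from 1 to 10 CPM, 0.17 from 10 to 100 CPM and 0.33 from 100 to 1000 CPM. With library totals alone the medians of these classes were -0.98, -0.43, 0.0036 and 0.15, so the rise from 10 to 100 CPM depended on the scaling.

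**Figure D2:**
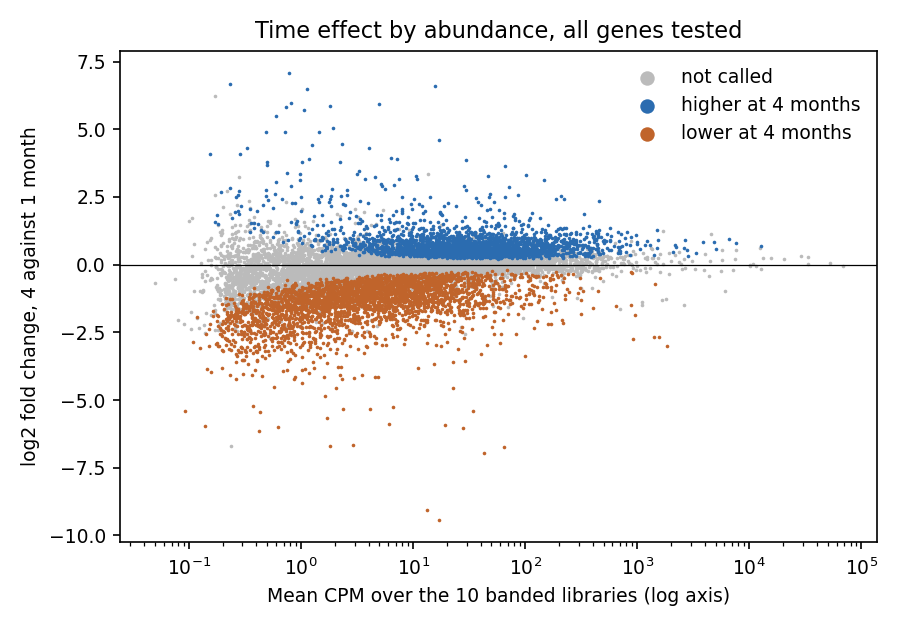
The log2 fold change of 4 against 1 month in banded skeletal muscle against mean CPM over the 10 libraries (log axis), 1 point for each of 13480 genes tested, coloured by call. Falls lie mostly among genes under 10 CPM and rises mostly among genes above it. Called falls have the larger median change in every class from 1 CPM up and called rises the larger one under 1 CPM. Under 1 CPM, genes could pass the low-count filter through the group where they were high.

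The precision of the fold change differed between these classes. The median standard error was 0.50 under 1 CPM, 0.24 from 1 to 10 CPM and 0.15 from 10 to 100 CPM, on the log2 scale. These errors were back-calculated from the edgeR test. The scarcest genes thus needed the largest changes to be called. They could also pass the low-count filter through the group where they were high, and the classes were not recomputed without that filter. Abundance was also set from the mean of the 8 sham libraries, which did not enter the banded means. With 3 of them at 1 month and 5 at 4 months, that mean leans to 4 months. Genes that fell in sham muscle too are placed lower by it and those that rose higher, so these classes are not free of the time effect. The shares were then 38.2% lower and 2.84% higher under 1 CPM, and 43.4% higher and 7.51% lower from 100 to 1000 CPM. Leaving out each banded library in turn gave 27.9% to 35.9% lower under 1 CPM and 37.9% to 42.4% higher from 100 to 1000 CPM. With library totals alone, genes from 10 to 100 CPM changed order, with 15.4% higher and 18.6% lower, while the other classes kept theirs (38.9% lower and 2.59% higher under 1 CPM, 38.2% and 5.07% from 1 to 10 CPM, 10.8% and 29% from 100 to 1000 CPM, 4.49% and 12.4% from 1000 CPM).

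Fewer genes were detected at 4 months. A count of 1 or more was found for 15960 to 16319 genes at 1 month (16138 ± 144.5, SD, n = 5) and for 15158 to 15691 genes at 4 months (15313 ± 218.3, SD, n = 5). The groups did not overlap, and the difference of -824.4 genes had a p of 0.00794 in an exact two-sided permutation test, the smallest that 5 against 5 allows, and an adjusted p of 0.0318 over 4 library measures. The 4-month libraries were not the shallower ones. At an equal depth of 21.5 M counts, the expected number of genes was 15691 to 16107 at 1 month and 14874 to 15451 at 4 months. Sham muscle at that depth gave 15383 to 15852 genes at 1 month and 15051 to 15670 at 4 months. These overlapped through sham 4-month library 5 alone, at 15670, and the other 4 sham libraries at 4 months, at 15051 to 15280, lay below all 3 at 1 month.

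Gene counts, the share of reads assigned to genes and the share of counts in the 10 most abundant genes had adjusted exact permutation p-values of 0.603, 0.524 and 0.691 between the times. At 1 CPM or more in all 5 libraries there were 10803 genes at 1 month and 10164 at 4 months, 9963 of them shared. Complete loss of counts was rare. Of 26681 genes, 7840 had no count in any of the 10 libraries and could show neither loss nor gain. Only 19 genes had a count in all 5 libraries at 1 month and none at 4 months. These held at most 9.2 counts per library on average at 1 month, and 1 gene showed the reverse.

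The called genes were next followed in the sham libraries, whose levels did not choose them, although they share the fit's filter and estimate of spread. Genes called higher in banded muscle held 18.2% to 20.95% of all counts in banded libraries at 1 month and 25.9% to 29.9% at 4 months, as their choice fixes. In sham muscle the same genes held 19.8% to 20.95% of counts at 1 month (20.3% ± 0.601, SD, n = 3) and 26.2% to 28.6% at 4 months (27.5% ± 1.04, SD, n = 5). Genes called lower held 6.42% to 8.81% at 1 month and 2.46% to 3.98% at 4 months in banded muscle. In sham muscle they held 5.86% to 6.94% at 1 month and 2.8% to 4.04% at 4 months. The sham libraries of both times thus separated on both sums, in the direction of the banded libraries.

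Gene by gene, the fitted sham change had the same sign in 90.9% of the genes called higher in banded muscle and in 93.6% of those called lower, against 76.6% of all genes tested. Of the 446 genes that rose more than 1.5-fold in banded muscle, all 446 had a positive sham change, and of the 1473 that fell, 1435 had a negative one. Sham muscle called 3404 genes (25.3%). The 2499 genes called in both treatments in the same direction were 43.5% of the banded calls and 73.4% of the sham calls. The medians of the genes called higher were 0.62 in banded and 0.42 in sham muscle, and those of the genes called lower -1.25 and -0.80, and the genes were chosen on the banded values.

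**Figure D3:**
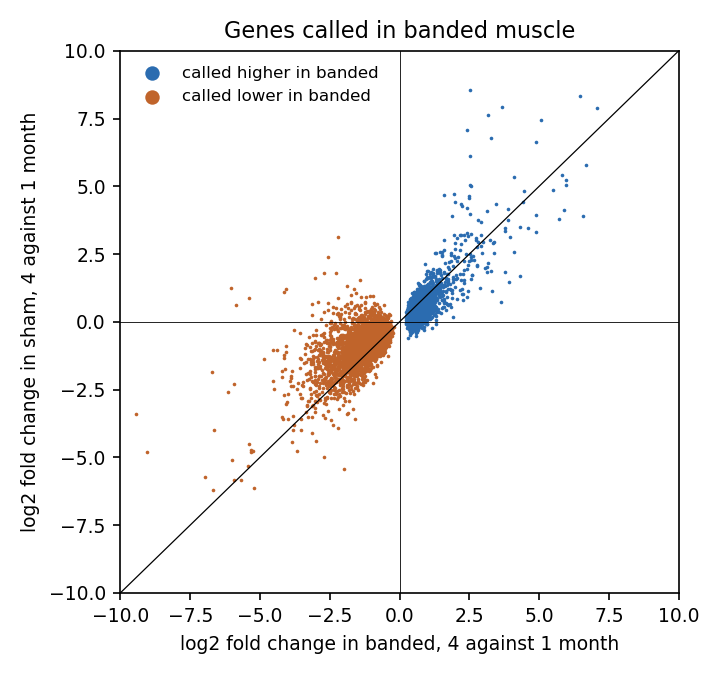
The log2 fold change of 4 against 1 month in sham skeletal muscle against that in banded skeletal muscle for the 5746 genes called in banded muscle, 1 point a gene, with the line of equal change. Most points lie in the quadrants of equal sign, which hold 90.9% of the genes called higher and 93.6% of those called lower.

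Sham muscle also showed the abundance pattern. Among genes under 1 CPM, 14.6% were lower and 4.42% higher at 4 months in sham animals, and from 100 to 1000 CPM 22.4% were higher and 6.13% lower. Shares of calls depend on the number of libraries, and sham muscle has 3 at 1 month. Over all genes tested, whether called or not, the sham median log2 fold change was -0.41 under 1 CPM, -0.21 from 1 to 10 CPM, 0.07 from 10 to 100 CPM and 0.19 from 100 to 1000 CPM, each nearer to 0 than the banded median of its class. These class medians, all with TMM scaling, were not tested against each other. The difference between the time effects of banded and sham muscle was tested for each gene, and 0 genes passed with edgeR (0%, smallest adjusted p 0.249). Without adjustment 1699 of 13480 genes had a p under 0.05, a larger share than the 0.05 expected if no gene differed. This excess was not tested, and 0 passing genes do not show that the time effects are equal. With adjustment DESeq2 called 13 genes and limma voom 0. Without banded 1-month library 4, edgeR called 1. No gene is therefore named as changing with time in banded muscle alone.

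**Figure D4:**
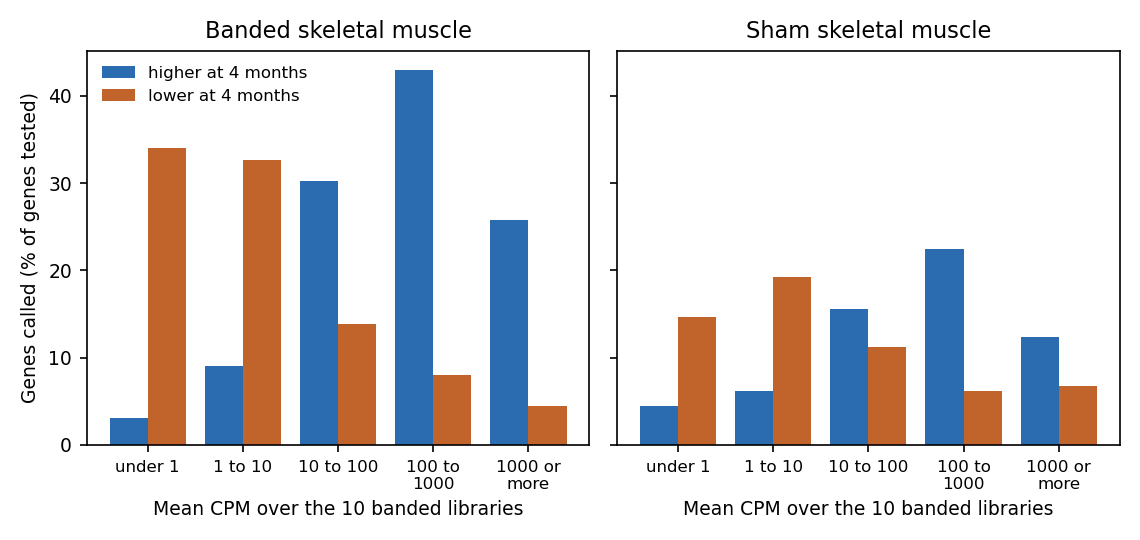
Percent of genes tested that were called higher or lower at 4 months in banded and in sham skeletal muscle, by mean CPM over the 10 banded libraries (bars start at 0). Falls exceed rises below 10 CPM and rises exceed falls above it in both treatments. With library totals alone as scaling, banded genes from 10 to 100 CPM have more falls than rises.

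By rule, 4 identifiers were taken, in each direction the largest fold change and the largest change in CPM among genes called, with groups that did not overlap and a mean of at least 10 CPM, which 1212 rising and 499 falling genes met. For all 4, separated banded groups, a passing banded adjusted p and an extreme change are fixed by the rule. ENSFCAG00000006569 had the largest fold rise under that rule. It reached the minimum of 10 CPM through the 4-month group, with a mean of 16.97 CPM over the 10 libraries and 8.42 CPM over the 9 without 4-month library 2. Its 5 libraries at 1 month stood at 1.16, 0.405, 1.83, 1.82 and 1.48 CPM, and those at 4 months at 3.44, 93.95, 34.1, 10.6 and 20.98 CPM. All 4-month libraries were above all 1-month libraries, with 4-month libraries 1 and 2 a long way apart. The log2 fold change was 4.60 (standard error 0.706, edgeR adjusted p 0.000138), a 24.2-fold rise, and it ran from 3.68 to 4.89 with 1 library left out. In sham muscle the gene stood at 1.60 ± 0.612 CPM (SD, n = 3) at 1 month and 17.6 ± 7.68 CPM (SD, n = 5) at 4 months, a log2 fold change of 3.46 (standard error 0.838, edgeR adjusted p 0.00732). The banded effect minus the sham effect was 1.14 (95% interval -0.93 to 3.21, edgeR adjusted p 0.639).

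ENSFCAG00000025799 had the largest gain in CPM. At 1 month its libraries stood at 7067, 3136, 5231, 4455 and 2642 CPM, and at 4 months at 8039, 8812, 9231, 7495 and 9948 CPM. Library 1 was the highest of the 1-month group and came close to the lowest 4-month library. The log2 fold change was 0.95 (standard error 0.221, edgeR adjusted p 0.00258), a 1.93-fold rise. It ran from 0.76 with library totals alone to 1.15 without 1-month library 1. Sham muscle went from 5982 ± 1398 CPM (SD, n = 3) to 8746 ± 852.1 CPM (SD, n = 5), a log2 fold change of 0.55 that did not pass (standard error 0.257, edgeR adjusted p 0.123), and the difference of 0.40 from the banded effect had a 95% interval of -0.30 to 1.10 (edgeR adjusted p 0.621).

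ENSFCAG00000032252 had the largest fold fall under the rule, and its size, its eligibility and so its rank rested on 1 library. Its mean was 17.2 CPM over the 10 libraries and 1.095 CPM over the 9 without 1-month library 1, below the minimum of 10 CPM. At 1 month library 1 stood at 161.8 CPM and libraries 2 to 5 at 4.56, 1.93, 1.14 and 2.00 CPM. At 4 months the 5 libraries together held 6 counts, from 0 to 0.127 CPM. The groups did not overlap. The log2 fold change was -9.43 (standard error 1.69, edgeR adjusted p 0.000428). Without 1-month library 1, the library with the low assigned share, it was -5.62 (standard error 0.77, edgeR adjusted p 9.414e-05). limma voom gave -6.54 and did not call the gene (adjusted p 0.0653). Over the 24 alternatives that gave an adjusted p its range was 9.414e-05 to 0.0653. In sham muscle the gene stood at 0.845 ± 0.35 CPM (SD, n = 3) at 1 month and 0.0782 ± 0.106 CPM (SD, n = 5) at 4 months, with a log2 fold change of -3.39 that did not pass (standard error 1.91, edgeR adjusted p 0.2). The banded effect minus the sham effect was -6.05 (95% interval -13.32 to 1.23, edgeR adjusted p 0.468), which did not pass. That interval rests on a standard error of 3.46, back-calculated from the test and only approximate at such low counts.

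ENSFCAG00000006015 had the largest loss in CPM. Its 1-month libraries stood at 993.9, 1126, 1984, 1100.4 and 2252 CPM and its 4-month libraries at 717.5, 299.7, 387.6, 386.4 and 292.4 CPM. All 4-month libraries were below all 1-month libraries, and 4-month library 1 was the nearest to them. The log2 fold change was -1.84 (standard error 0.297, edgeR adjusted p 0.000192), and it ran from -2.14 to -1.64 with 1 library left out. Sham muscle fell too, from 1209 ± 151.8 CPM (SD, n = 3) to 443.4 ± 149.5 CPM (SD, n = 5), with a log2 fold change of -1.45 (standard error 0.325, edgeR adjusted p 0.00484). The banded effect minus the sham effect was -0.39 (95% interval -1.32 to 0.53, edgeR adjusted p 0.733).

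**Figure D5:**
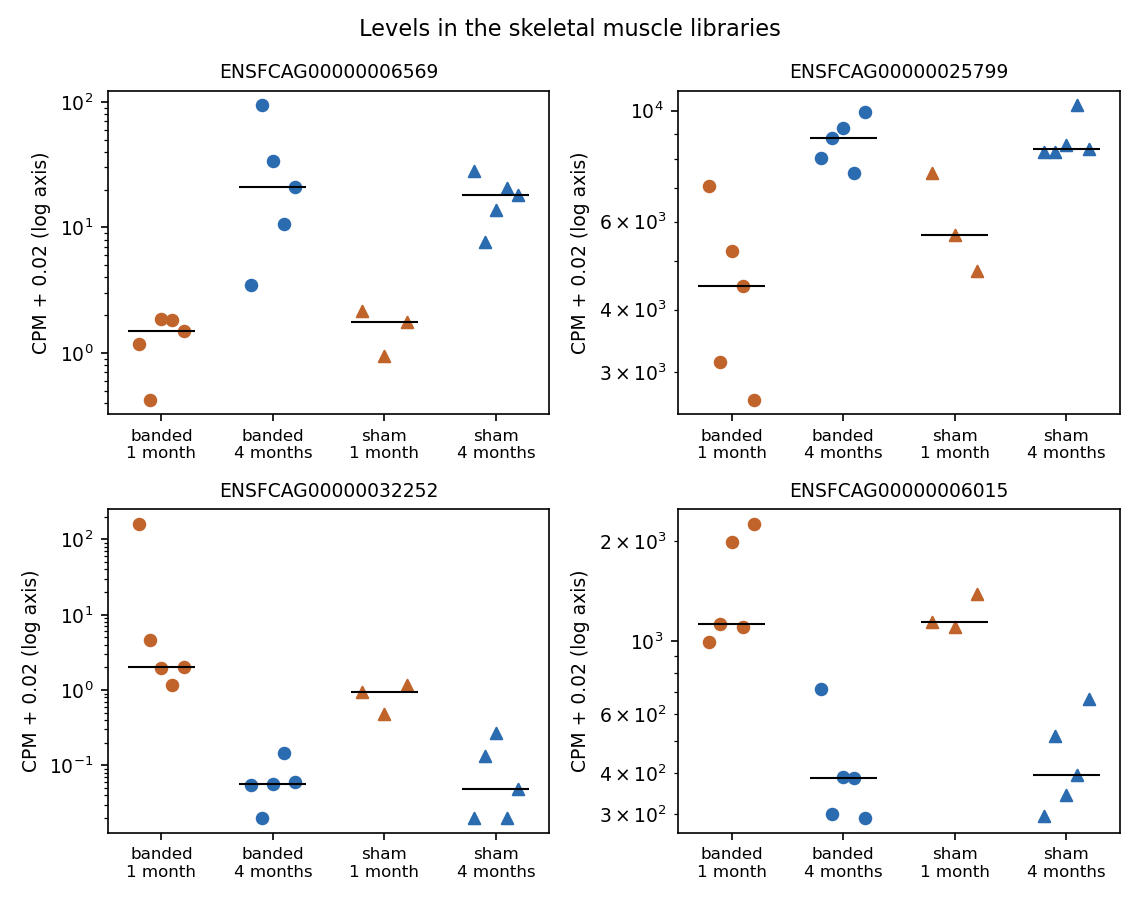
CPM plus an offset of 0.02 (log axis) of the 4 identifiers in the 18 skeletal muscle libraries, 1 point a library, circles for banded and triangles for sham, with a bar at each group's median. In banded muscle the 4-month points lie wholly above the 1-month points for ENSFCAG00000006569 and ENSFCAG00000025799. They lie wholly below them for ENSFCAG00000032252 and ENSFCAG00000006015. The rule that chose the genes fixes this separation. For ENSFCAG00000032252 1 library at 161.8 CPM stands above the rest of its group.

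Banded left ventricle served to ask where the muscle change differs from that of the heart. In a fit of all 36 libraries the time effect differed between banded skeletal muscle and banded left ventricle in 2515 of 14579 genes (17.3%), with 1183 more positive (8.11%) and 1332 more negative (9.14%) in muscle. Of these 2515, 831 had a positive fitted change in muscle and a negative one in the ventricle, 914 the opposite, 388 a positive change in both and 382 a negative change in both. Choosing genes whose effects differ favours opposite signs, and over all 14579 genes tested the same counts were 2741, 2555, 4553 and 4644. Of 5730 genes called in banded muscle and tested in both tissues, 1634 (28.5%) had a time effect that differed. These genes were chosen on the same banded muscle libraries, which favours a difference. How much of the excess over the 17.3% of all genes comes from that choice was not tested. With 1 library left out, 2015 to 2671 genes differed between the tissues. The labels do not say whether both tissues came from the same animals, and the fit treats the libraries as independent. Left ventricle itself called 3550 of 13976 genes (25.4%).

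Of the 4 identifiers, 2 could be tested within left ventricle, and CPM there was scaled separately from muscle. ENSFCAG00000006015 fell in banded ventricle from 2333 ± 165 CPM to 1259 ± 298.8 CPM (SD, n = 5 each), by 0.89 on the log2 scale (standard error 0.19, edgeR adjusted p 0.00257). The muscle effect minus the ventricle effect was -0.88 (standard error 0.349, edgeR adjusted p 0.077), which did not pass. It passed with DESeq2 (adjusted p 0.0437) and without muscle 4-month library 1, muscle 1-month library 1 or ventricle 4-month library 3 (adjusted p 0.0138, 0.0481 and 0.0455 with edgeR). ENSFCAG00000025799, among the abundant genes of muscle, stood at 2.77 ± 1.76 CPM at 1 month and 3.85 ± 3.9 CPM at 4 months in banded ventricle (SD, n = 5 each), and the difference between its effects in the tissues did not pass (0.53, standard error 0.605, edgeR adjusted p 0.584). ENSFCAG00000006569 held 4 and 14 counts over the 5 ventricle libraries at 1 and 4 months, and ENSFCAG00000032252 held 3 and 1, too few to be tested within the ventricle.

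In the authors' deposited table of this comparison, 5896 of 13368 genes had an adjusted p under 0.05, with 2826 higher and 3070 lower at 4 months. The genes called in both the authors' deposited table and the fit here numbered 5541, all with the same sign, which is 94% of the table's calls and 96.4% of the calls here. The authors' deposited table gives log2 fold changes of 4.62 for ENSFCAG00000006569, 0.97 for ENSFCAG00000025799, -9.46 for ENSFCAG00000032252 and -1.83 for ENSFCAG00000006015, and holds no adjusted p for ENSFCAG00000032252.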

How the data were processed

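A stranded mRNA kit was used on total RNA, per the labels' protocols. Each library has 1 deposited file of raw counts over 26681 genes, whose 5 summary lines were dropped. The tools named in the submitters' processing notes are HISAT2 (2.1.0), HTSeq (0.11.2) and also DESeq2 (1.22.2), with no roles given. The genome build and annotation are not given in the sources used here. The authors' deposited table of the comparison gives a mean normalized count (a signal), a log2 fold change with its error, a test score and raw and adjusted p-values per gene, per the file headers.

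edgeR 4.0.16 (R 4.3.3) was fitted to the 18 skeletal muscle libraries with filterByExpr on the 4 groups, TMM scaling and group means. CPM used effective library sizes of the genes kept, and log2 CPM a prior count of 2. Tests were two-sided, with Benjamini-Hochberg adjustment over all genes tested and a threshold of 0.05. Changes beyond 1.5-fold were tested with glmTreat. Standard errors of the edgeR fits were back-calculated, as the absolute log2 fold change divided by the square root of the quasi-likelihood F statistic. The 95% intervals of differences between effects were built from them, and both are approximate where counts are few. Tissue differences were fitted on all 36 libraries. Expected genes at equal depth were computed from each library's counts. Alternatives were DESeq2 1.42.0, limma 3.58.1 voom, RLE scaling, no low-count filter, only the groups compared, a replicate block, each library left out and, added after seeing the data, library totals alone and other abundance classes. Scripts were tested on simulated data. Among 20 pairs of libraries within the banded groups 0 were identical, with a chi-square of at least 50.5 per degree of freedom. The comparison, the named gene rule and the lists were chosen with earlier results of these data known. The rule named 4 identifiers, as given in the report. The 27 gene lists of 254 symbols could not be joined to identifiers.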

Additional observations from a re-analysis of the deposited data

Results flagged for a closer look

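Among 28 groups of values examined for a library far from the rest, chance alone flags about 1 in 20 where values are normally distributed. CPM of scarce genes need not be, so the flags were not weighed against that share. The 1-month banded library 1 was far from its group in the share of reads assigned to genes (59.1%) and in ENSFCAG00000032252 (162 CPM). The 4-month banded library 1 was far from its group in genes detected (15691) and in ENSFCAG00000006015 (717 CPM), each time on the side of the 1-month libraries. A pair of further libraries was far from their group in ENSFCAG00000025799, sham muscle library 4 at 4 months (10257 CPM) and banded ventricle library 2 at 4 months (10.8 CPM). For ENSFCAG00000032252 in banded ventricle at 4 months, 1 library with 1 count (0.0615 CPM) stood against 4 at 0, a pattern that is always flagged.

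The time effect differed between banded skeletal muscle and banded left ventricle in 2515 genes, by the edgeR test of the difference itself.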

How the results depend on the processing

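The count of genes changed with time in banded muscle stayed within 1.5 times of 5746 under every alternative run, from 4823 with only the groups compared to 6167 with DESeq2, and from 4945 to 5816 with 1 library left out. Changes beyond 1.5-fold numbered 1506 to 2155 over the other settings and 1295 to 2196 with 1 library left out, lowest without 4-month library 5. The difference between banded and sham time effects gave 13 genes with DESeq2 and 0 to 1 with 1 library left out. Genes detected differed by -918.9 to -779 with 1 library left out, and the groups overlapped in none of these. The adjusted exact permutation p was 0.0635 without 1-month library 1, 2, 3 or 5, the next value above the smallest possible (0.0318) with 1 library fewer. The difference between tissues gave 2015 to 2671 genes with 1 library left out.

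With the replicate number as a block, 5708 genes changed, 1801 beyond 1.5-fold, and 0 differed from sham. For the difference between tissues, same-numbered ventricle and muscle libraries of a group were taken as 1 animal, which the labels do not state. That fit gave 2446 genes, and no call on a named identifier changed in either fit. Same-numbered libraries of the 2 times had correlations of deviations from -0.125 to 0.119 and none was the best match, so the numbers were not taken as pairs. DESeq2 gave no adjusted p for ENSFCAG00000032252. Genes under 1 CPM had a median standard error of 0.50, which holds both counting error and the spread between libraries.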

Other observations

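The spread between libraries of a group was much alike at both times. The biological coefficient of variation was 0.32 in the 5 banded libraries at 1 month and 0.306 in the 5 at 4 months. It was 0.281 without 1-month library 1 and 0.271 without 4-month library 2. The SD of log2 CPM was larger at 1 month in 6976 of 13480 genes (51.8%). Spearman correlations of log2 CPM ran from 0.940 to 0.978 among the 10 pairs of 1-month libraries, from 0.964 to 0.982 among the 10 pairs of 4-month libraries and from 0.911 to 0.960 among the 25 pairs across the times, which share genes and libraries and carry no test.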
